A study of Mus musculus with 2 samples.

Results

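Genes by which adipocytes take up, store and release lipid were examined in 2 arrays of E18.5 mouse cochlea, whose titles read −/− and +/+. The genes are *Fabp4*, *Lpl*, *Cd36*, *Gpd1*, *Adipoq*, *Pparg*, *Cebpa*, *Ucp1*, *Lipe* and *Cfd*. The list was chosen by known roles in fat cells at a time when the levels and differences of these arrays, that of *Gpd1* among them, had been seen, so the values below describe the genes without testing them. Every probe set that the platform annotation pairs with only 1 of these symbols was used, which gave 18 probe sets for 9 of the 10 genes, out of 12393 genes measured on 22626 probe sets. *Cfd* had no such probe set. The 4 genes *Fabp4*, *Lpl*, *Cd36* and *Gpd1* are also used by muscle or endothelium and are given apart from the 5 measured genes that are more restricted to fat, *Adipoq*, *Pparg*, *Cebpa*, *Ucp1* and *Lipe*.

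The arrays were hybridised with RNA from cochleae of C57BL/6J embryos at embryonic day 18.5, bred from parents heterozygous for a targeted disruption of *Igf1*. The otic capsule was kept in the dissected tissue and the vestibular part was removed, and each array holds the pooled RNA of 8 cochleae according to the labels. The study's methods instead describe several separate pools of embryos per genotype, and the sources used here do not state if a deposited column comes from one hybridisation or combines the pools, so the spread between pools is unknown. The labels contradict each other, since the source name and description give the wild type for the array whose title reads −/− and the null mouse for the one whose title reads +/+. The names −/− array and +/+ array used here follow the titles alone, each difference subtracts the +/+ array from the −/− array, and the genotype behind each sign is open. If the source names hold instead of the titles, each array is of the other genotype and every direction given here runs the opposite way by genotype. The 3 probe sets of *Igf1* were present on both arrays and differed by −0.42, −0.75 and −0.58 on the log2 scale, which does not settle the labels because the part of the gene they read was not compared with the disrupted part.

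A fat cell is filled by fatty acids that lipoprotein lipase frees from circulating triglyceride, that CD36 carries across the membrane and that fatty acid binding protein 4 holds in the cytosol. They are joined to a glycerol backbone, for which glycerol-3-phosphate dehydrogenase 1 makes the precursor, and hormone-sensitive lipase helps to release them again. PPARγ and C/EBPα are the transcription factors that drive this programme in differentiating adipocytes. Brown adipocytes, which form before birth in the mouse, express the same genes and burn the lipid for heat through the mitochondrial carrier UCP1.

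The values are log2 levels as deposited, and the median difference over all probe sets, 0.022, was subtracted from each difference. There is no replicate of either title, so the design allows no test and no p-value is given. Probe sets of the same gene, which read the same RNA and are no replicates of a condition, give the only repeat measurement. The pooled SD of the difference between probe sets of a gene was 1.17 in the lowest of 3 equal bands of mean level (below 5.06), 0.27 in the middle band and 0.10 in the highest (above 7.68). In the lowest band 17.6% of all probe sets had a difference above 1, against 0.955% in the middle band and 0.252% in the highest. Of the 18 probe sets examined here, 5 lay in the lowest band, 10 in the middle and 3 in the highest.

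All 9 measured genes had a higher level on the −/− array, by a median of 0.64 (1.55-fold for the median gene, *Lpl*), while 50.5% of all 12393 genes were higher there, with a median of 0.0028. The same held for each of the 18 probe sets. With all values below the 25th percentile of an array raised to that percentile, 8 of the 9 genes were higher, by a median of 0.40, and *Pparg* was at 0. At a size of 1 log2 unit, 2 of the 9 genes, *Gpd1* and *Pparg*, were above it and none was below −1, beside 5.54% of all genes above 1 and 4.07% below −1. At 0.5, 5 of the 9 were above and none below, beside 12.0% and 8.6% of all genes. Since the list was proposed with results of this comparison known, these counts describe the genes and do not test them. In whole tissue, fewer cells of a type and less RNA per cell cannot be told apart.

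**Figure D1:**
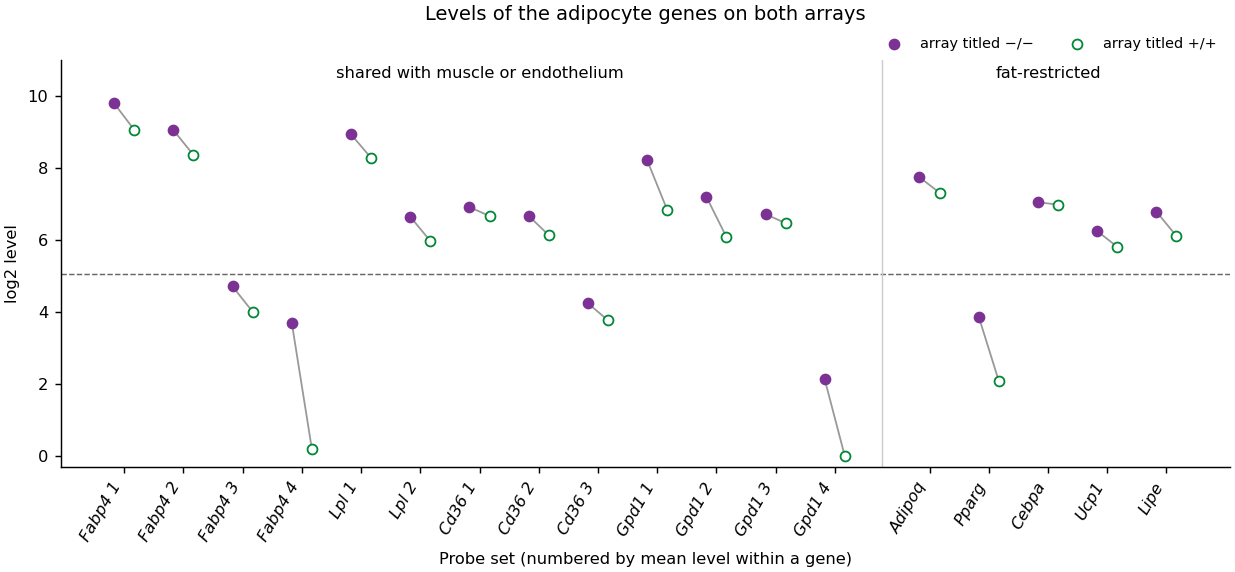
Log2 level of every probe set of the 9 measured genes on the −/− array (filled purple) and the +/+ array (open green), with 1 value per array and genes shared with muscle or endothelium to the left of the line. The dashed line marks 5.06, the upper bound of the lowest level band, and each of the 18 probe sets is higher on the −/− array.

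*Fabp4* encodes the cytosolic fatty acid carrier of adipocytes, which capillary endothelium and macrophages also make. Its strongest probe set was at 9.80 on the −/− array and 9.06 on the +/+ array, a difference of 0.71 (1.64-fold). The next one was at 9.06 on the −/− array and 8.36 on the +/+ array, a difference of 0.67. These lay within 0.1 of each other and both belong to the highest level band, in which 1.49% of all probe sets had a difference above 0.5. The third probe set gave 0.68 at low level, 4.71 on the −/− array and 4.01 on the +/+ array. The weakest was at 3.70 on the −/− array and 0.19 on the +/+ array, and its difference of 3.49 was read where the spread between probe sets of a gene is widest. Over the 4 probe sets the difference was 1.39 ± 1.40 (SD between probe sets), a mean that rests on the weakest of them.

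*Lpl* encodes lipoprotein lipase, which parenchymal cells such as adipocytes and muscle fibres secrete and which acts on the surface of capillaries. The level of its strongest probe set was 8.94 on the −/− array and 8.28 on the +/+ array, a difference of 0.64 (1.55-fold). The other probe set was at 6.65 on the −/− array and 5.98 on the +/+ array, a difference of 0.65. The pair differed by less than the pooled SD of either of their bands, with a mean of 0.64 ± 0.013 (SD between 2 probe sets).

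*Cd36*, the fatty acid translocase of adipocytes, muscle, capillary endothelium and macrophages, differed less. Its strongest probe set was at 6.92 on the −/− array and 6.67 on the +/+ array, a difference of 0.23 that is smaller than the pooled SD of its band, 0.27. The second gave 6.68 on the −/− array and 6.14 on the +/+ array, a difference of 0.52. The third gave 4.25 on the −/− array and 3.78 on the +/+ array, a difference of 0.45. The mean over the 3 was 0.40 ± 0.15 (SD between probe sets).

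*Gpd1* had the largest difference among the 8 measured genes whose strongest probe set lay above the lowest band. Its enzyme makes glycerol 3-phosphate, the backbone of stored triglyceride, and carries reducing equivalents between cytosol and mitochondria in muscle and brown fat. The strongest probe set was at 8.23 on the −/− array and 6.84 on the +/+ array, a difference of 1.36 (2.57-fold). The second was at 7.21 on the −/− array and 6.09 on the +/+ array, a difference of 1.10, but it ends in _x_at, a mark of probes that may also bind other transcripts. The third was at 6.72 on the −/− array and 6.47 on the +/+ array, a difference of only 0.22. The probe sets of *Gpd1* therefore agreed in sign and not in size, since the third fell short of the strongest by several times the pooled SD of their shared band. The weakest was at 2.13 on the −/− array and listed at 0 on the +/+ array, so no fold is given for it.

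*Adipoq* encodes adiponectin, a hormone secreted by adipocytes. Its only probe set was at 7.75 on the −/− array and 7.32 on the +/+ array, a difference of 0.41 (1.33-fold). The level lay above 67.7% of the probe sets on the −/− array and above 61.0% of those on the +/+ array, so that it was above the median of both arrays. *Lipe*, which encodes hormone-sensitive lipase, was at 6.80 on the −/− array and 6.11 on the +/+ array, a difference of 0.66 (1.58-fold). Steroid-producing cells and muscle express *Lipe* as well. *Ucp1*, the uncoupling protein of brown and beige adipocytes, was at 6.25 on the −/− array and 5.82 on the +/+ array, a difference of 0.42 (1.33-fold). Of these 3, *Lipe* was above 0.5, beside 6.84% of all probe sets of the middle band.

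The transcription factors of the programme were read less clearly. *Pparg* was at 3.88 on the −/− array and 2.09 on the +/+ array, a difference of 1.77, but its single probe set lay in the lowest band. With low values raised to the 25th percentile its difference was 0. *Cebpa*, whose product also acts in liver and in myeloid cells, was at 7.05 on the −/− array and 6.99 on the +/+ array. Its difference of 0.040 (1.03-fold) was the smallest of the 9 and well under the pooled SD of its band.

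The 4 shared genes had a median difference of 0.67, and 3 of them, *Fabp4*, *Lpl* and *Gpd1*, were above 0.5. The 5 fat-restricted genes had a median of 0.42, and 2 of them, *Pparg*, which lay in the lowest band, and *Lipe*, were above 0.5. Of all genes, 12.0% were above 0.5. The ranges of the subsets overlapped, from 0.23 to 1.36 in the shared genes and from 0.040 to 1.77 in the restricted ones. With 1 array per title the difference between the subsets could not be tested. Over the 13 probe sets outside the lowest band, the median difference of the members was 0.64, with 8 of 13 above 0.5 and 2 above 1, both of *Gpd1*. Among all 15084 probe sets outside the lowest band, 4.16% were above 0.5 and 0.603% above 1.

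**Figure D2:**
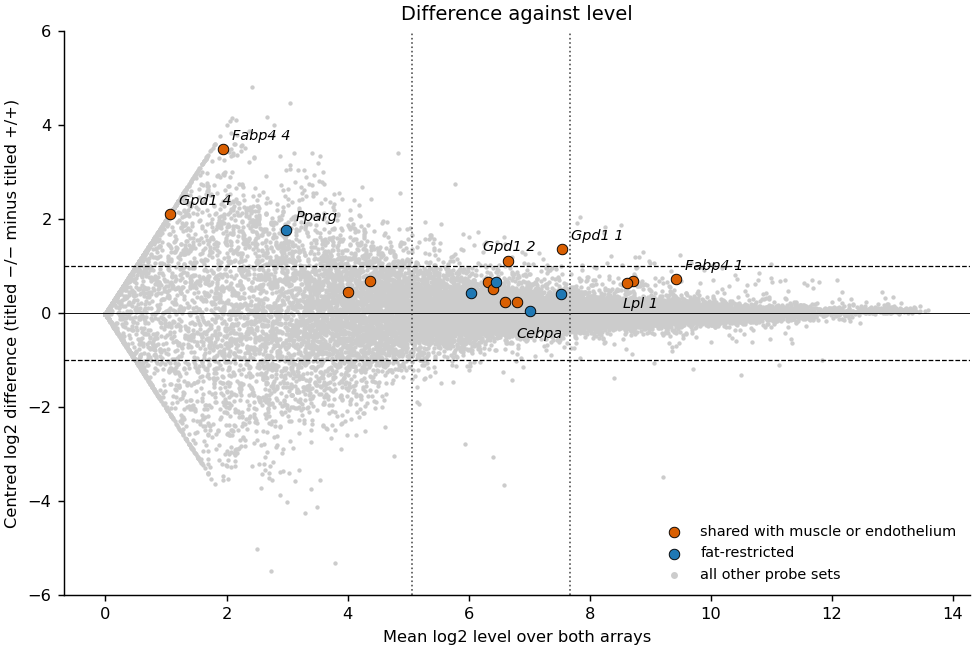
Centred log2 difference (−/− array minus +/+ array) against the log2 level averaged over both arrays, each probe set a point, genes shared with muscle or endothelium in orange, fat-restricted genes in blue and all other probe sets in grey. Dashed lines mark 1 and −1 and dotted lines the level bands at 5.06 and 7.68, and the 18 coloured points all lie above 0, with *Fabp4* 1 at 0.71 and *Gpd1* 1 at 1.36 outside most of the grey spread at their level and *Pparg* at 1.77 inside it.

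As a planned description, the bases before the transcription starts of the genes were searched for the core motifs of the factors named above, for a muscle E-box and for a TATA box. The RefSeq promoter table of GRCm38.p6 holds 10 windows for 7 of the genes, *Cfd* included, and 250 bases before each start were read. *Fabp4*, *Lpl* and *Gpd1* were not among them. AGGTCA, the core to which PPARγ and other nuclear receptors bind, was found on either strand in 4 of the 10 windows, those of *Cd36* and *Ucp1* and 2 of the 3 of *Pparg*, and in 14% of all 32851 windows. The DR1 element of the PPAR and RXR heterodimer, a pair of these cores spaced by 1 base, was in none of the 10 and in 0.0335% of all. TTGCNNAA, a loose C/EBP motif, was in 1 of the 10 windows and 9.56% of all, and its strict form TTGCGCAA, which the loose one contains, in none of the 10 and 0.164% of all. The muscle E-box CAGCTG was in 1 window, that of *Adipoq*, and in 13% of all. TATAAA was in 2 windows, of *Cebpa* and *Pparg*, and in 12.4% of all. A match is a string of letters and no measured binding site.

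Windows of 4 genes are shown 5′ to 3′ on the strand of the gene, ending on the base before the start, because they hold the matches named above in a shared gene and in the hormone, the thermogenic gene and the transcription factor of the restricted set. Capitals mark the matched motif. *Cd36* (chr5:17835897-17836146, minus strand) has the complement of AGGTCA from 228 to 223 bases before the start. *Adipoq* (chr16:23146286-23146535, plus strand) has CAGCTG from 61 to 56 bases before it. *Ucp1* (chr8:83290098-83290347, plus strand) has AGGTCA from 14 to 9 bases before it. *Pparg* (chr6:115421816-115422065, plus strand) is shown for the start that lies farthest downstream of its 3, with TTGCNNAA matched from 215 to 208 and, on the other strand, from 16 to 9 bases before the start.
Cd36: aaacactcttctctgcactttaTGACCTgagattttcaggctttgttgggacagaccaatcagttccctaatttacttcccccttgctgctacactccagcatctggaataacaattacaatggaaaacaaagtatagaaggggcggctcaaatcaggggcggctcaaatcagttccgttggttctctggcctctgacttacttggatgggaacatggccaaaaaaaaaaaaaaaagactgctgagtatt
Adipoq: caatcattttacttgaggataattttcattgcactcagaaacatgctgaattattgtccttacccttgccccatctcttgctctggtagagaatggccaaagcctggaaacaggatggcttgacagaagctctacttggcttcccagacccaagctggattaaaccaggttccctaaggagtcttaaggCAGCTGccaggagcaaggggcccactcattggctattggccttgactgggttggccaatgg
Ucp1: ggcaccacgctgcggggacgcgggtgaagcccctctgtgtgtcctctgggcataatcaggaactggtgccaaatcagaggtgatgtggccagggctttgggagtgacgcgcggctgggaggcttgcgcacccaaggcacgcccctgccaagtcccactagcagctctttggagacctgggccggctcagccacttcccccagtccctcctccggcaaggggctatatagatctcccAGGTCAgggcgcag
Pparg: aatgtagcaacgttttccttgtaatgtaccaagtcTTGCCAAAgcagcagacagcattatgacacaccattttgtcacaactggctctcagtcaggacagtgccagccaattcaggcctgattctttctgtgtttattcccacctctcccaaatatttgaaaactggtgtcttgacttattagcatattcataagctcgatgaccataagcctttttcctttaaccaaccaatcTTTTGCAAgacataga

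Among other genes of lipid storage, 18 of 22 listed were measured, of which 14 were higher and 4 lower on the −/− array, with a median difference of 0.21, or 0.078 among genes above the median level and 0.11 as a mean over probe sets. The 3 above 1 were *Pck1*, which feeds glycerol synthesis in fat and glucose synthesis in liver, and the lipid droplet genes *Plin4* and *Cidec*, and none was below −1. *Plin4* was at 6.12 on the −/− array and 4.75 on the +/+ array, a difference of 1.35, while *Cidec*, at 4.29 on the −/− array and 2.96 on the +/+ array, differed by 1.31 in the lowest band. *Pck1* was at 4.60 on the −/− array and 1.96 on the +/+ array, also in the lowest band. The 4 genes of the highest level in this list differed little. *Fabp5*, the epidermal fatty acid binding protein, differed by 0.16, the droplet coat gene *Plin2* by 0.030, and *Gpam* and *Dgat1*, which act in the first and last steps of triglyceride synthesis, by 0.0080 and −0.035. *Lep*, the gene of the fat hormone leptin, was listed at 0 on both arrays.

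Genes of brown fat were measured for 7 of 10 listed, with 4 higher, 3 lower and a median of 0.37, or 0.69 among the 3 genes above the median level. Of these 3, *Cidea* and *Ppargc1b* lay below that median level on the +/+ array. They pass the filter only through the −/− array, which favours a larger value. *Cidea*, a lipid droplet protein of brown adipocytes, was at 7.91 on the −/− array and 6.96 on the +/+ array, a difference of 0.93 (1.91-fold). *Cox8b*, a cytochrome oxidase subunit of brown fat and striated muscle, was at 8.21 on the −/− array and 7.49 on the +/+ array, a difference of 0.69. *Ppargc1b*, a coactivator of mitochondrial genes, differed by 0.44 and *Cox7a1*, another subunit of fat and muscle, by 0.37. The 3 lower ones were *Dio2*, *Elovl3* and *Ppargc1a*, at −0.62, −0.37 and −0.086, each with a mean level below the median of all genes. Brown fat genes therefore lay on both sides of 0, and the 4 of the highest level were the positive ones.

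Of 11 measured transcription factors and regulators of adipocyte differentiation, 6 were higher and 5 lower, with a median of 0.081, or −0.055 as a mean over probe sets. *Dlk1*, which encodes the preadipocyte factor 1 and is also expressed in fetal muscle and other embryonic tissues, was at 11.87 on the −/− array and 11.20 on the +/+ array, a difference of 0.65. *Ebf1* differed by −0.19, *Srebf1* by 0.10 and *Rxra*, the partner of PPARγ, by −0.093. The only one below −1 was *Nr1h3*, the liver X receptor α, at 2.56 on the −/− array and 5.02 on the +/+ array, in the lowest band. Of 10 measured genes of fatty acid oxidation, 8 were higher and 2 lower, with a median of 0.23, or 0.063 among genes above the median level, and none beyond 1 in either direction. As a mean over probe sets 9 were higher and 1 was above 1. Without probe sets ending in _x_at or _s_at 9 were higher. *Acadm*, *Acadl*, *Hadhb* and *Hadha*, enzymes of the mitochondrial pathway, differed by 0.23, 0.063, −0.046 and −0.057. Over all 4 lists, 28 of 45 measured genes lay above the gene median of the level, 7.10, and of these 21 were higher and 7 lower. This level is the mean of both arrays, so a gene can pass through 1 array alone.

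**Figure D3:**
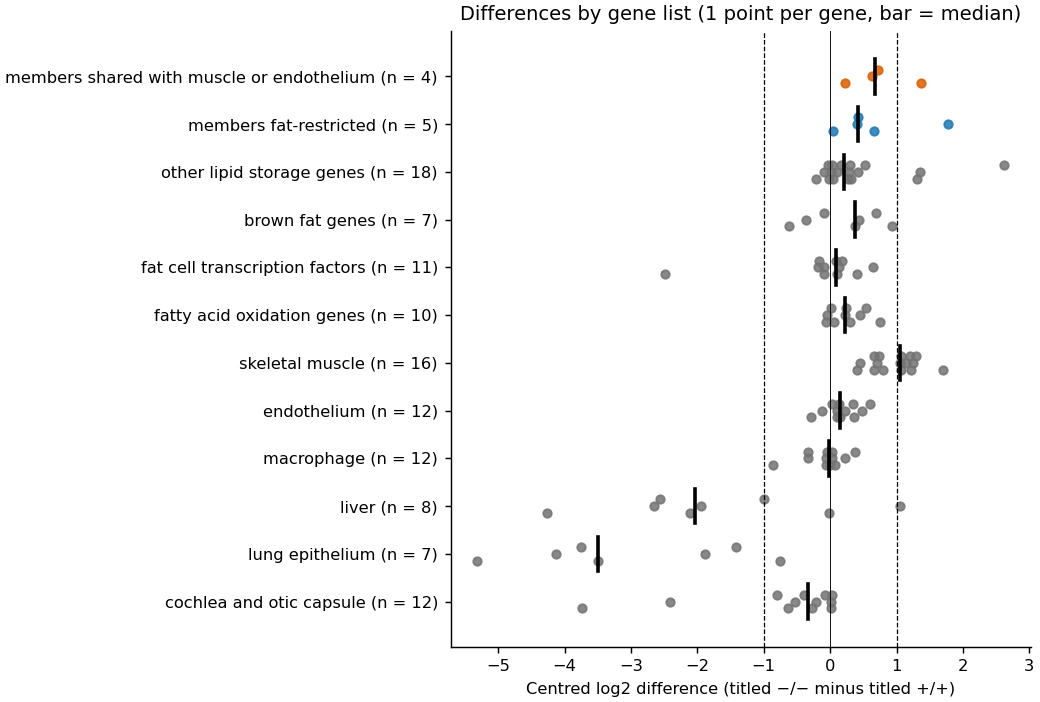
Centred log2 difference (−/− array minus +/+ array) of each measured gene by list, with 1 point per gene and a bar at the list median. The shared and fat-restricted members have medians of 0.67 and 0.42, between those of skeletal muscle at 1.06 and endothelium at 0.14, and dashed lines mark 1 and −1. As a mean over probe sets, not drawn here, the shared members had a median of 0.92 and skeletal muscle 0.77.

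Markers of other cell types that use some of these genes moved to different degrees. All 16 measured skeletal muscle genes were higher on the −/− array, 9 of them above 1, with a median of 1.06, and the log2 of their summed level was 14.94 on the −/− array and 14.19 on the +/+ array. As a mean over probe sets, 15 of the 16 were higher and 6 were above 1. Among the 4 of the highest level, the skeletal actin gene *Acta1* differed by 0.45, the myosin light chain gene *Mylpf* by 0.66, the creatine kinase gene *Ckm* by 0.70 and *Myl1* by 0.66. The slow muscle genes *Myh7*, *Tnnc1* and *Tnni1* differed by 1.71, 1.29 and 1.20, and the other genes of this list above 1 and above the median level, *Casq2*, *Ldb3*, *Actn2*, *Des* and *Myh3*, by 1.24, 1.22, 1.07, 1.06 and 1.05. No muscle marker was listed at 0 on both arrays. The lipid storage genes were higher on the same array as these genes, and the part of muscle in them was not tested. The differences of *Cebpa* and of the strongest *Cd36* probe set were under the pooled SD of their band. The second *Cd36* probe set, in the same band, differed by 0.52.

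Of 12 endothelial genes, 10 were higher and 2 lower, with a median of 0.14 and none beyond 1, and the log2 of their summed level was 11.85 on the −/− array and 11.71 on the +/+ array. *Ramp2*, *Emcn*, *Eng* and *Egfl7* differed by 0.11, −0.29, −0.13 and 0.15. Of 12 macrophage genes, 6 were higher and 6 lower, with a median of −0.019 that lay above 0, at 0.0029 to 0.018, under 4 alternatives, and the log2 of the summed level was 11.70 on the −/− array and 11.73 on the +/+ array. *Csf1r*, *Mrc1*, *C1qb* and *C1qa* differed by −0.067, −0.34, 0.0034 and −0.041. The medians of both lists were below the differences of *Fabp4* at 0.71, *Lpl* at 0.64 and *Cd36* at 0.23. Single genes ranged from −0.29 to 0.60 in the endothelial list and from −0.86 to 0.37 in the macrophage list. None of these markers was listed at 0 on both arrays, and the part of these cells in the fat gene differences was not tested.

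Most markers of liver and of lung epithelium lay on the opposite side. Of 8 liver genes, 7 were lower on the −/− array and 1, *Apoa2*, higher, with a median of −2.03 at a median level of 3.25, or −0.18 with low values raised to the 25th percentile, and *Fgb* was listed at 0 on both. *Ttr*, which choroid plexus makes as well, differed by −1.003, and *Alb*, *Apoa2* and *Afp* by −1.94, 1.06 and −4.26, with *Apoa2* and *Afp* in the lowest band. The log2 of the summed liver level was 11.37 on the −/− array and 12.37 on the +/+ array. All 7 measured genes of lung epithelium were lower, with a median of −3.49 at a median level of 4.44, or −1.43 with low values raised. *Sftpc*, *Sftpb*, *Sftpd* and *Cldn18* differed by −3.49, −1.42, −0.76 and −1.88, with *Cldn18* in the lowest band. *Cldn18* is also expressed in the stria vascularis of the cochlea. The log2 of the summed lung level was 8.27 on the −/− array and 11.25 on the +/+ array, and the part of these tissues in the fat gene differences was not tested. Of the 12 genes that mark the labelled tissue, 9 were lower and 3 higher, or 1 after quantile normalization or loess, with a median of −0.33. The cartilage collagen gene *Col2a1* differed by 0.015, and *Tecta*, *Coch* and *Gjb2* of the cochlear duct and its fibrocytes by −0.52, −0.40 and −0.80, at levels in the highest band on both arrays. Cochlear genes below −1 were *Kcnq1*, at 3.42 on the −/− array and 5.81 on the +/+ array, and *Kcne1*, at 0.72 on the −/− array and 4.43 on the +/+ array. Both lay in the lowest band, and the count of 2 below −1 became 1 with low values raised to the 25th percentile.

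**Figure D4:**
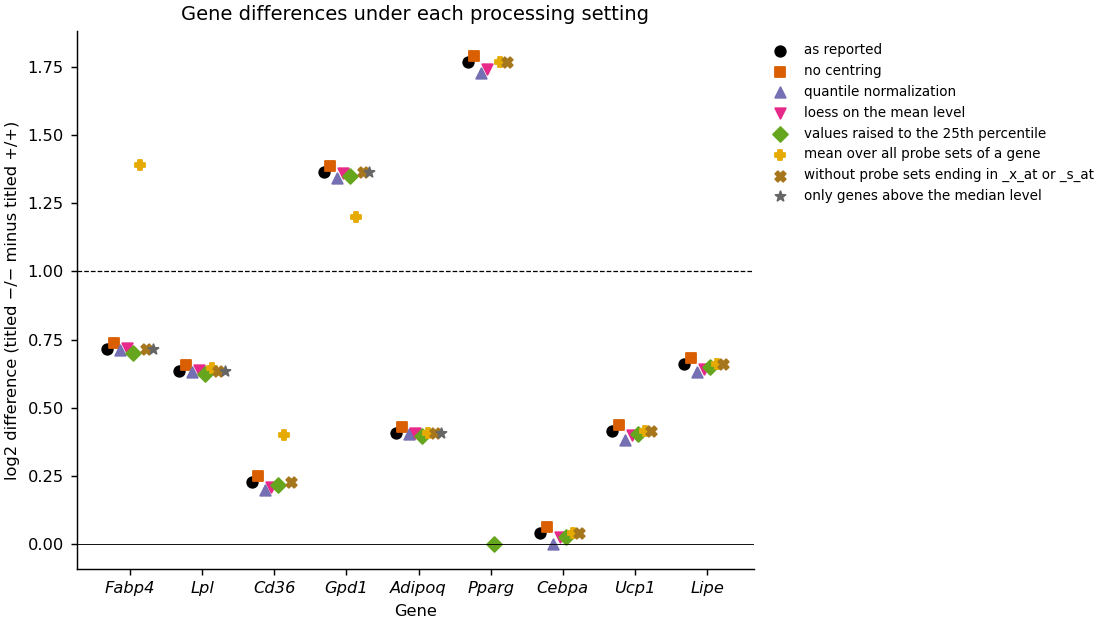
Log2 difference (−/− array minus +/+ array) of the 9 measured genes as reported and under 7 alternative settings, with 1 symbol per setting. *Fabp4* lies at 1.39 when its probe sets are averaged and *Pparg* at 0 with low values raised to the 25th percentile, while *Cd36* spans 0.20 to 0.40 and *Gpd1* 1.20 to 1.38.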

How the data were processed

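Processed values of 2 Affymetrix MOE430A arrays were analysed. The authors labelled cRNA with biotin, hybridised and scanned it, and their methods name MAS5.0, RMA and multi-mgMOS of the PUMA package. Which of them made the deposited log2 levels and how the arrays were scaled to each other are not given in the sources used here. A log base of 2 was read from the range of the values, 0 to 13.64 outside the controls. Of 22690 probe sets, 64 controls were left out, and 20380 of the rest are paired with 1 symbol, 691 with several and 1555 with none. Gene IDs of 20351 were found in the RefSeq gene table of GRCm38.p6.

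The difference was centred on its median, and a gene was read from its probe set with the highest mean level. No test was made, since there is 1 array per title, and precision is limited by the number of arrays. The genes and all lists were chosen with earlier results of these data known. Named are all 9 measured genes and, of each other list, the 4 of the highest level and any above the median level of all genes, 7.10, with a difference beyond 1. *Plin4*, *Cidec*, *Pck1*, *Lep*, *Nr1h3*, *Dio2*, *Elovl3*, *Ppargc1a*, *Fgb*, *Kcnq1* and *Kcne1* were chosen after their values were seen. The alternatives were no centring, quantile normalization, loess with a span of 0.3, values raised to the 25th percentile, a mean over probe sets, no probe sets ending in _x_at or _s_at, only genes above the median level, and limits of 0.5 and 2. On simulated arrays with 100 of 22626 probe sets changed by 1 and 100 by 0.5, the median errors were 0.007 and −0.009. Only probe sets above the median level were changed, so the errors do not cover lower levels. A planned comparison of protein sequences was not run. Python 3.11.15, numpy 2.4.6, pandas 2.3.3, statsmodels 0.14.6 and matplotlib 3.10.9 were used.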

Additional observations from a re-analysis of the deposited data

How the results depend on the processing

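No paired analysis was possible because each title has 1 array. Of 58 differences of the 9 genes under the alternatives, 57 were above 0 and 1, that of *Pparg* with values raised to the 25th percentile, was 0. With values raised the median of the 9 genes was 0.40. The differences of *Fabp4* and *Pparg* each moved by more than the pooled SD of their level band under 1 alternative, to 1.39 as a mean over probe sets and to 0. The count of 2 genes above 1 became 3 as a mean over probe sets, 1 with values raised and 1 among genes above the median level. At limits of 0.5 and 2 it was 5 and 0. For fat-restricted genes the count of 1 became 0 with values raised and 0 among genes above the median level, and 2 and 0 at the 2 limits. For shared genes it became 2 as a mean over probe sets, and 3 and 0 at the limits, and their median became 0.92 as a mean over probe sets. Only 4 of the genes, 1 of them fat-restricted, pass the filter on the median level, 7.10, and all 4 were higher on the −/− array. The filter reads the mean of both arrays. *Gpd1*, at 6.84 on the +/+ array, passes it only through its 8.23 on the −/− array, so this setting gives no independent support for the direction.

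Among those genes the median of the brown fat list became 0.69 and that of fatty acid oxidation 0.063, that of other lipid storage genes 0.078 and that of liver −1.003. The brown fat value rests on 3 genes, of which *Cidea* and *Ppargc1b* pass only through the −/− array, and the liver value on 1, *Ttr*. As a mean over probe sets the median of other lipid storage genes became 0.11 and that of the fat cell transcription factors −0.055, below 0, while the macrophage median lay above 0, between 0.0029 and 0.018, under 4 alternatives. The muscle median became 0.91 with values raised and 0.77 as a mean over probe sets, the liver median −0.18 with values raised, and the lung median −1.43 with values raised and −2.20 as a mean over probe sets. Fewer genes enter by the construction of the level filter, and for the other settings the cause was not tested. Of 210 counts in the other lists, 17 moved by over 1.5 times. Among these, 1 of 12 cochlear genes, not 3, was higher after quantile normalization and after loess. Levels in the lowest band carry the widest spread between probe sets and limit *Pparg* and the weakest probe sets of *Fabp4* and *Gpd1*.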
